A study of Mus musculus with 19 samples.

Results

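The 10 genes followed here encode the precursor proteins of neuropeptides: Sst, Npy, Cck, Vip, Penk, Pdyn, Tac1, Tac2, Cort and Crh. They were found by symbol in the RNA and the ribosome profiling count tables, where all 10 were among 20436 genes. They were chosen by measured values of these libraries (level, RPF to RNA ratio and DHPG against basal), so that these measures are given below as descriptions, without a test of their own. All libraries came from hippocampal slices of wild-type male mice, aged 28 to 42 days by the labels, with CA3 kept and the slices of several mice pooled for each replicate. The slices had been incubated for 5 min with 100 µM DHPG, an agonist of group I metabotropic glutamate receptors that induces long-term depression, or with ACSF as vehicle (basal). All slices were then placed in cycloheximide at 100 µg/ml, which stops ribosomes on the mRNA. RNA-seq gave the RNA level (4 basal and 5 DHPG libraries), and ribosome profiling gave the ribosome-protected fragments, or RPFs, from the coding sequence (5 basal and 5 DHPG libraries). RNA and RPF libraries with the same replicate number were made from the same lysate, and DHPG RNA replicate 5 had no basal partner. Totals ran from 4870813 to 7793244 counts in the 9 RNA libraries and from 5692064 to 22092434 in the 10 RPF libraries. Levels are given as CPM, a count scaled to its library's total by edgeR's TMM method. In whole slices, fewer cells of a type and less RNA per cell cannot be told apart.

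Neuropeptides are cut from larger precursors in the secretory pathway by prohormone convertases, stored in dense core vesicles and released during strong activity to act on G protein-coupled receptors. In the hippocampus most of them are made by subsets of GABAergic interneurons. Somatostatin, from Sst, marks interneurons that contact distal dendrites of pyramidal cells, and cortistatin, from Cort, is its close relative. Neuropeptide Y (Npy) damps glutamate release. Cholecystokinin (Cck) and vasoactive intestinal peptide (Vip) mark further interneuron classes, although pyramidal cells hold Cck mRNA too. Penk and Pdyn encode the enkephalins and dynorphins, which are opioid peptides, with Pdyn known from dentate granule cells. Tac1 encodes substance P and neurokinin A, Tac2 encodes neurokinin B, and Crh encodes corticotropin-releasing hormone.

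The pair of relatives in this set was Sst and Cort, and their sequences are shown because a short read from the shared peptide could in principle belong to either gene. In mm10, Sst lies on the minus strand of chromosome 16 from 23889573 to 23890958 in 2 exons, and Cort on the minus strand of chromosome 4 from 149125034 to 149126763 in 2 exons. The 14 codons that encode the end of somatostatin are at chr16:23889732-23889773 (just before the stop codon), and the matching 14 codons of Cort at chr4:149125270-149125311 (1 codon before the stop). Capitals mark bases that are identical in both, read 5′ to 3′ on the coding strand.
Sst: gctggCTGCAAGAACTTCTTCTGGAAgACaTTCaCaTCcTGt
Cort: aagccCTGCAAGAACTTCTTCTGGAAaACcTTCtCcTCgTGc
The 2 stretches had 31 of 42 bases in common (73.8%), with a longest shared run of 21 nt. The RPF count left out the first and last 30 nt of each coding sequence, which removes most of this stretch. In what remained, none of the 266 overlapping 26-nt words of Sst and none of the 245 of Cort occurred in the coding sequence of any other gene (0 for each of the other 8 precursors too). The other precursors lie on chromosome 6 (Npy from 49822710 to 49829507 and Tac1 from 7554879 to 7565834, both on the plus strand), chromosome 9 (Cck from 121489824 to 121495694, minus strand) and chromosome 10 (Vip from 5639218 to 5647617 and Tac2 from 127724478 to 127731768, plus strand). Penk (chromosome 4 from 4133531 to 4138819), Pdyn (chromosome 2 from 129686565 to 129699844) and Crh (chromosome 3 from 19693401 to 19695396) are on the minus strand. Only the Penk locus overlaps another annotated gene, the noncoding A830012C17Rik on the opposite strand, which has no row in the tables. Coding sequences ran from 294 nt (Npy) to 807 nt (Penk).

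Of the 10 precursors, Cck and Sst had the highest levels in both assays. Per kilobase of transcript, basal RNA was 472.7 ± 131.7 CPM for Cck and 142 ± 28.6 for Sst (SD, n = 4). Npy followed at 27.4 ± 2.74, Penk at 9.57 ± 1.80, Vip at 8.03 ± 1.52 and Pdyn at 4.76 ± 0.67. The lowest were Tac1 at 3.75 ± 0.82, Cort at 2.92 ± 1.31, Tac2 at 2.14 ± 0.70 and Crh at 0.656 ± 0.285. The ranges of Penk and Vip overlapped, as did those of neighbours from Pdyn to Tac2, so that their order is not resolved by these libraries. Sst and Cck together held 87.2% of all RNA counts of the 10 genes, which in turn were 0.0357 to 0.0596% of a library.

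The order of RPFs per kilobase of counted coding sequence began in the same way. Basal values were 1736 ± 109.7 CPM for Cck, 1246 ± 47.6 for Sst and 383 ± 12.7 for Npy (SD, n = 5), without overlap between them. Vip came next at 93.6 ± 11.6, above Penk at 52.6 ± 4.08, and here the ranges of Vip and Penk did not overlap. Tac1 (47.4 ± 11.1), Pdyn (35.5 ± 2.01), Tac2 (27.7 ± 6.73) and Cort (17.1 ± 1.19) followed, and neighbours from Penk to Cort overlapped. Crh was lowest at 6.52 ± 1.05, below every Cort library. The 10 genes were 0.106 to 0.125% of RPF counts, of which 79.2% fell on Sst and Cck. By mean CPM without regard to length, Sst was gene 2346 in RNA and gene 458 in RPF, and Npy was gene 8559 in RNA and gene 2476 in RPF.

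**Figure D1:**
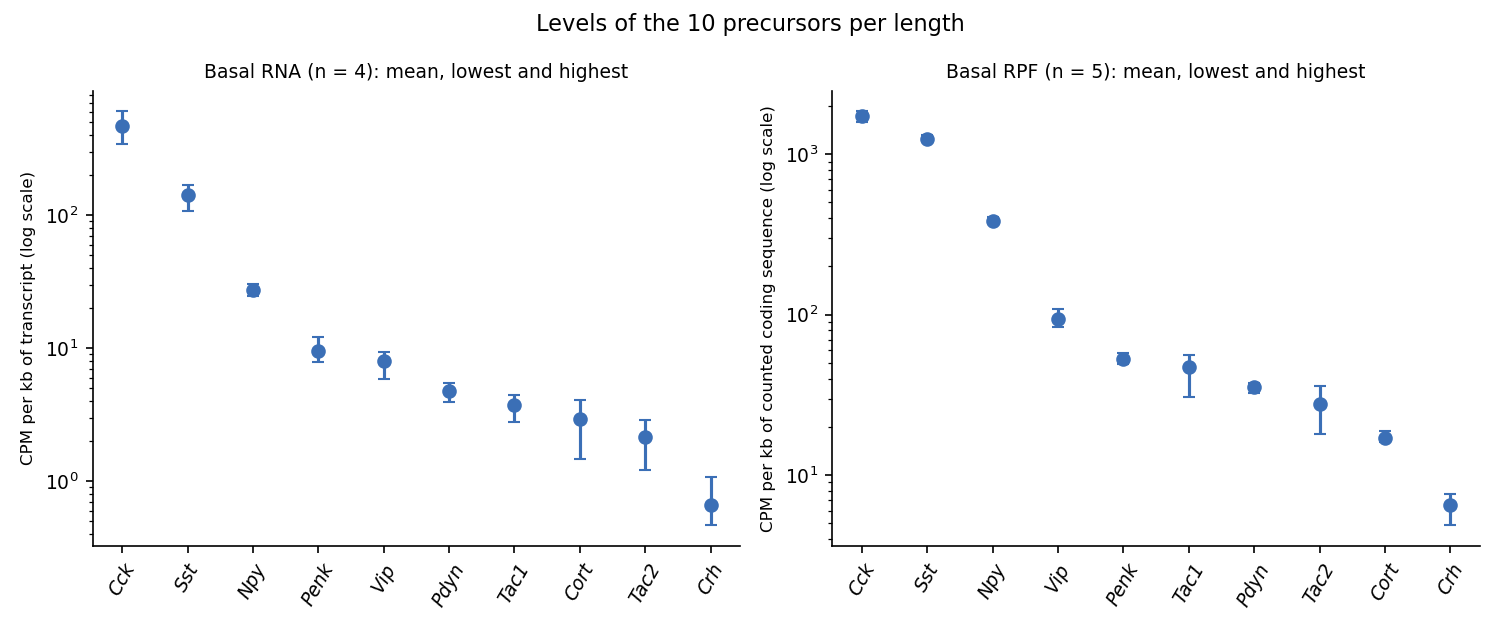
Basal level of each precursor in CPM per kilobase of transcript (RNA, left, n = 4) or of counted coding sequence (RPF, right, n = 5), on log axes. Points are means and bars run from the lowest to the highest library. Cck, Sst and Npy stand apart from the rest in both panels, with means of 472.7, 142 and 27.4 in RNA and 1736, 1246 and 383 in RPF.

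All 10 precursors had more RPF than RNA for their share of the library. The resting RPF to RNA ratio, taken as log2 RPF CPM less log2 RNA CPM in each basal replicate with both libraries, had a median of -0.18 over 12691 genes tested in both assays, and a median of 1.69 over the 10 precursors. Npy was highest, with values of 2.72, 2.36, 2.41 and 2.59 in replicates 1 to 4 (mean 2.52 ± 0.17, SD, n = 4), which placed it above 99.1% of genes. For Sst the 4 values were 2.03, 1.66, 1.52 and 2.21 (1.86 ± 0.32, above 97% of genes). Cck was lowest, with 1.03, 0.23, 0.19 and 1.11 (0.64 ± 0.50, above 79% of genes). Replicates 1 and 4 were thus high and replicates 2 and 3 low for both Sst and Cck. The means of the others were 1.98 ± 0.59 for Tac2, 1.82 ± 0.42 for Vip, 1.72 ± 0.64 for Tac1, 1.66 ± 0.32 for Crh, 1.51 ± 0.15 for Penk, 1.15 ± 0.60 for Cort and 1.11 ± 0.23 for Pdyn. Tac2, Cort and Crh rest on few RNA reads, with at most 18 counts in any RNA library.

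**Figure D2:**
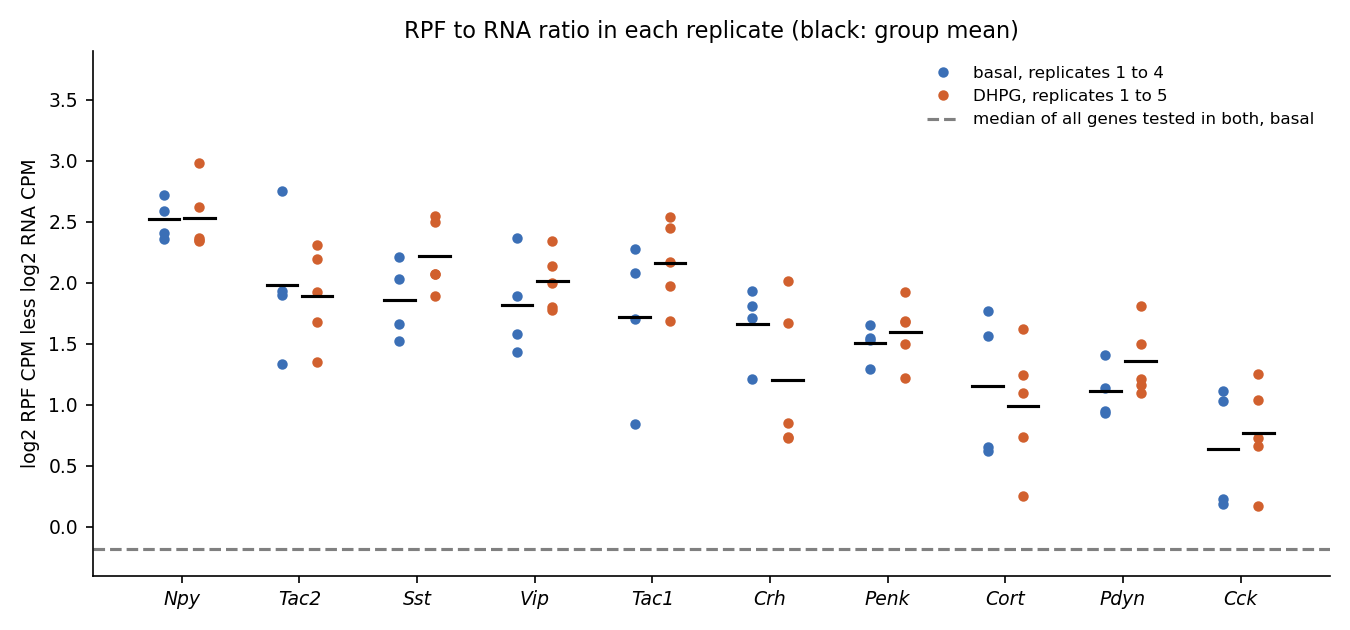
RPF to RNA ratio (log2 RPF CPM less log2 RNA CPM) of each precursor in each replicate with both libraries, in basal (blue, n = 4) and DHPG slices (orange, n = 5). Black lines are group means, and the dashed line is the basal median of all 12691 genes, -0.18. Every point lies above that line, with Npy highest (basal mean 2.52) and Cck lowest (0.64).

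The ratio was then also taken per length. With RPF and RNA both divided by their own length, the ratio had a median of 0.88 over the 12229 genes with lengths (96.4% of those tested) and 3.11 over the precursors, which were all above the general median. Among only the 2341 genes with coding sequences in the range of the precursors, 294 to 807 nt, the median was 2.17. Against these short genes 9 of the 10 precursors were above the median, from Npy (3.79, above 85.4% of them), Tac1 (3.61, 82.4%) and Vip (3.56, 81.8%) through Sst (3.16, 74.8%) to Penk (2.46, 58%). Cck (1.90) was below it, above 42.9% of them. The rank of every precursor was thus lower against genes of like coding length than against all genes.

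A measure that the choice of genes did not use is the difference between replicate numbers, each a separate preparation of slices. It was tested with edgeR's quasi-likelihood F test of all replicate terms in the fit that also held the treatment. In RNA, 2 of the 9 precursors tested passed an adjusted p of 0.01 (22.2%), where 35.2% of all 12935 genes passed. These were Sst and Cck, the 2 with the most RNA counts. Cort and Tac2 had wider ranges, 2.15-fold and 1.92-fold, and did not pass, on at most 18 counts a library. Sst RNA, averaged over the libraries of a replicate, was 96.0, 109.2, 113.6, 73.7 and 75.7 CPM in replicates 1 to 5, a 1.54-fold range (edgeR, adjusted p = 7.8e-05). Cck RNA was 274.1, 364, 419.8, 234.6 and 349.3 CPM, a 1.79-fold range (edgeR, adjusted p = 3.58e-07). Both were highest in replicate 3 and lowest in replicate 4, and replicate 5 is a DHPG library only.

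The RPFs of Sst did not vary in this way. They were 398.4, 399.6, 371.4, 384.5 and 389.3 CPM in replicates 1 to 5, a 1.08-fold range that did not pass (edgeR, adjusted p = 0.256). The SD of the log2 level over replicates was 0.043 for Sst RPF, lower than in all but 2.93% of genes (median 0.13), and 0.29 for Sst RNA, above that of 71.7% of genes (median 0.22). These percentiles take no account of counts, and Sst had 450 to 790 counts in an RNA library and 2328 to 7721 in an RPF library. Whether the spread of Sst differed between RNA and RPF was not tested. In RPF, 6 of the 10 precursors passed an adjusted p of 0.05 (60%), where 48.3% of 13208 genes did. They were Npy, Cck, Vip, Penk, Tac1 and Tac2, with ranges from 1.17-fold for Npy (86.7 to 101.6 CPM, edgeR, adjusted p = 0.0194) to 1.46-fold for Tac2 (6.49 to 9.49 CPM, adjusted p = 0.0211). Cck RPF ranged 1.18-fold, from 475.4 CPM in replicate 3 to 562.5 in replicate 1 (edgeR, adjusted p = 0.000257), so that the replicate with the most Cck RNA had the fewest Cck RPFs. Tac1 RPF was 19.2, 18.7 and 18.7 CPM in replicates 1 to 3 and 13.2 and 14.97 in replicates 4 and 5 (edgeR, adjusted p = 0.000933).

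**Figure D3:**
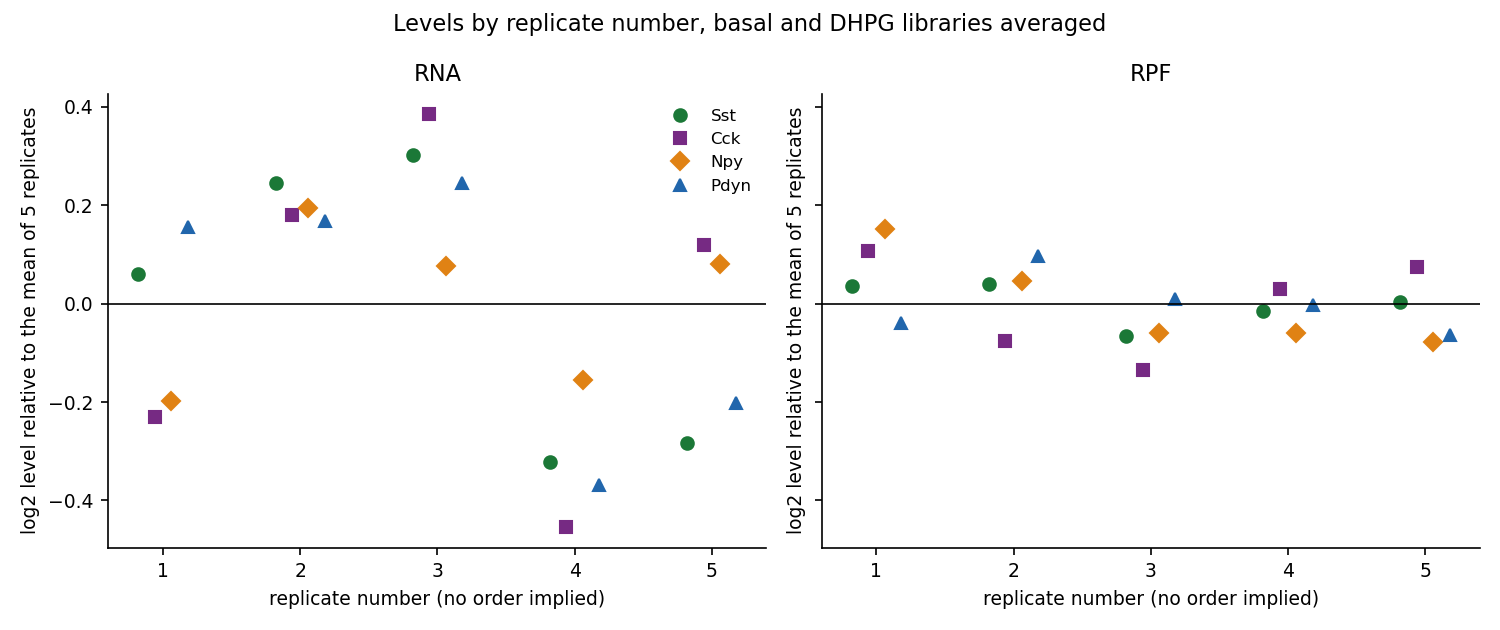
Level of Sst, Cck, Npy and Pdyn in each replicate number relative to the gene's mean over the 5 replicates, on a log2 scale, in RNA (left) and RPF (right), with basal and DHPG libraries of a replicate averaged (RNA replicate 5 is DHPG only). The RNA points spread further than the RPF points, as for Sst, with 73.7 to 113.6 CPM in RNA and 371.4 to 399.6 CPM in RPF. Npy and Pdyn RNA rest on fewer counts than their RPFs (83 to 107 and 50 to 90 a library) and did not pass the test between replicates.

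DHPG was compared with basal slices to ask which RNAs and which ribosome footprints change within minutes of receptor activation. The RPFs and RNA of Sst are taken first, as they entered the choice of genes apart. Sst RPFs were 382.3, 370.2, 350.5, 361.2 and 349.4 CPM in basal replicates 1 to 5 and 414.5, 429.1, 392.3, 407.9 and 429.3 CPM after DHPG. The lowest DHPG library was thus above the highest basal library, a pattern of higher, non-overlapping groups that 0.159% of genes shared. The fitted log2 fold change was 0.20 (SE 0.03), or 1.14-fold, with 0.12, 0.21, 0.16, 0.18 and 0.30 in the 5 replicate pairs. An RPF higher in every pair was found for 5.16% of genes. Sst was the 1 precursor of 10 past an adjusted p of 0.05 in edgeR's quasi-likelihood test blocked on replicate number, a threshold that 0.22% of the 13208 genes passed (24 higher, or 0.182%, and 5 lower, or 0.0379%). This contrast entered the choice of genes, so that the count is a description and supports nothing. Without the block 0 genes passed and Sst had 0.19 (SE 0.055). DESeq2, whose filter on low means left an adjusted p for 1429 RPFs and for 2 of the 10 precursors, called 28 RPFs, Sst and Cck among them. Adjusted over all genes, an alternative chosen after seeing the data, DESeq2 called 4 RPFs, with Sst and without Cck.

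Sst RNA did not follow. It was 93.3, 116.6, 121.9 and 77.8 CPM in basal replicates 1 to 4, and 98.7, 101.8, 105.2, 69.6 and 75.7 CPM in DHPG replicates 1 to 5. The groups overlapped, with a higher value after DHPG in 1 of 4 pairs and a fitted log2 fold change of -0.12 (SE 0.075). In RNA 0 of 9 precursors passed an adjusted p of 0.01, where 0.00773% of genes did (1 gene with edgeR and 0 with DESeq2, beside 1037 at an unadjusted p under 0.05). The change in RPF less the change in RNA was 0.31 for Sst (SE 0.074), and 0.035, 0.41, 0.37 and 0.34 in pairs 1 to 4, so that pair 1 was close to 0 and the other three alike. It was 0.51 for Tac1 (SE 0.24, 3 of 4 pairs above 0, and 0.17 without replicate 4) and 0.25 for Pdyn (SE 0.15, 4 of 4 pairs above 0). For this difference 0 of 9 precursors passed an adjusted p of 0.05, as did 0% of 12691 genes (0 with edgeR and 0 with DESeq2, beside 859 at an unadjusted p under 0.05).

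**Figure D4:**
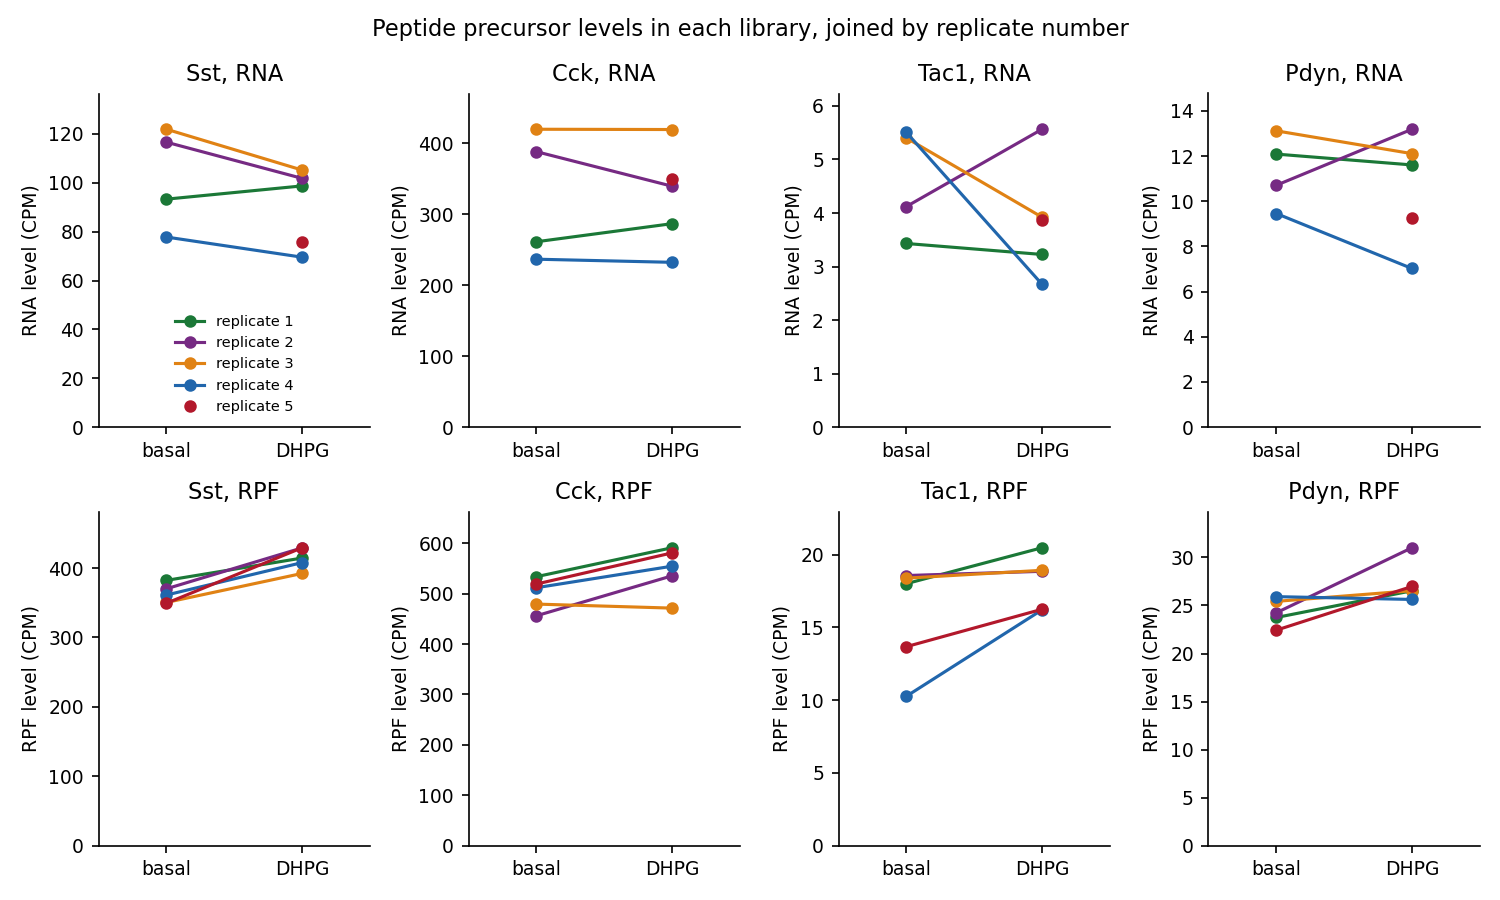
RNA (top) and RPF (bottom) level in CPM of Sst, Cck, Tac1 and Pdyn in each basal and DHPG library, with lines joining libraries of the same replicate number and axes from 0. For Sst all 5 RPF lines go up (basal 349.4 to 382.3, DHPG 392.3 to 429.3), while 3 of 4 RNA lines go down.

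Cort, the relative of Sst, showed no shared direction. Its RPFs were 5.12, 4.45, 4.72, 4.32 and 4.46 CPM in basal replicates 1 to 5 and 3.56, 5.91, 3.48, 4.90 and 5.45 CPM after DHPG. The DHPG libraries lay on both sides of the basal ones, with a log2 fold change of 0.03 (SE 0.13) and 3 of 5 pairs higher. In RNA it was 0.01 (SE 0.31), from 7 to 18 counts a library, and no direction was detectable at this depth.

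Npy differed little in either assay, and in no common direction. Its RPFs were 94.7, 89.4, 89.2, 87.4 and 87.4 CPM in basal slices and 108.4, 99.5, 86.5, 88.1 and 86.0 CPM after DHPG. Replicates 1 and 2 were higher after DHPG and the other three were within 0.044 of their basal partner on the log2 scale, for a fitted value of 0.051 (SE 0.039). The RNA value was 0.018 (SE 0.12).

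Among the peptides of the other interneuron classes, Cck RPFs were 533.8, 456.2, 479.4, 511.9 and 519.2 CPM in basal replicates and 591.2, 535.5, 471.4, 554.6 and 581 CPM after DHPG. They were higher in 4 of 5 pairs, with replicate 3 the exception, and the fitted log2 fold change was 0.13 (SE 0.031) while the groups overlapped. It was called by DESeq2, without a filter on low counts and without replicate 3 (0.17), and not by the fit used here. Cck RNA had -0.021 (SE 0.069) and was higher in 1 of 4 pairs. Vip had 0.072 in RPF (SE 0.048, 4 of 5 pairs higher, basal 38.0 to 49.2 and DHPG 40.2 to 51.7 CPM) and -0.097 in RNA (SE 0.14).

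Of the opioid precursors, Pdyn had the larger RPF value. Its RPFs were 23.8, 24.2, 25.4, 25.9 and 22.4 CPM in basal replicates and 26.5, 31.0, 26.5, 25.6 and 27.0 CPM after DHPG. The groups overlapped only through replicate 4, and the log2 fold change was 0.17 (SE 0.06) with 4 of 5 pairs higher. In RNA Pdyn had -0.077 (SE 0.14). Penk had 0.041 in RPF (SE 0.049, basal 36.8 to 43.3 and DHPG 34.4 to 44.8 CPM) and 0.034 in RNA (SE 0.14).

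Of the tachykinin precursors, Tac1 was the other gene besides Sst with higher RPFs in all 5 pairs. They were 18.0, 18.6, 18.4, 10.3 and 13.7 CPM in basal replicates and 20.5, 18.9, 18.9, 16.2 and 16.3 CPM after DHPG. The gain in pairs 2 and 3 was 0.022 and 0.041 on the log2 scale, and that of pair 4, whose basal library was the lowest, was 0.65. The fitted value was 0.17 (SE 0.073), and without replicate 4 it was 0.098 (SE 0.073). Tac1 RNA was lower in 3 of 4 pairs (-0.32, SE 0.23) on 19 to 39 counts a library, with -0.065 without replicate 4 and -0.55 without replicate 2. Tac2 RPFs had -0.049 (SE 0.10), the 1 precursor of 10 with a lower fitted RPF, although without replicate 3 it was 0.074, and Tac2 RNA had 0.10 (SE 0.30).

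Crh was the rarest and was too low in RNA to be tested, with 3 to 15 counts a library. On these few counts its RNA differed by 0.99, 0.53, 0.32 and -0.0056 in pairs 1 to 4. The RPF change less the RNA change was -0.86, 0.089, -0.14 and -0.47. Its RPFs were 3.57, 3.41, 3.13, 3.85 and 2.47 CPM in basal replicates and 3.92, 5.30, 3.59, 2.73 and 4.27 CPM after DHPG, from 22 to 79 counts. They were higher in 4 of 5 pairs and lower in replicate 4, with a log2 fold change of 0.32 (SE 0.15) that was 0.20 without replicate 2, 0.22 without replicate 5 and 0.46 without replicate 4.

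Over the set, fitted RPFs were higher after DHPG for 9 of 10 precursors, with a median log2 fold change of 0.099, beside 51.4% of all genes higher and a general median of 0.0031. Fitted RNAs were higher for 4 of 9, with a median of -0.021 beside 0.0068 over all genes. The change in RPF less that in RNA was above 0 for 8 of the 9 tested in both assays (all but Crh), with a median of 0.15 beside -0.0014. Under the 9 other settings the number higher ran from 8 to 10 in RPF, 3 to 4 in RNA and 7 to 8 in the difference, with the sign of Tac2 and Cort RPFs turning in some. Since the genes were chosen with these values known, the counts describe the set only.

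**Figure D5:**
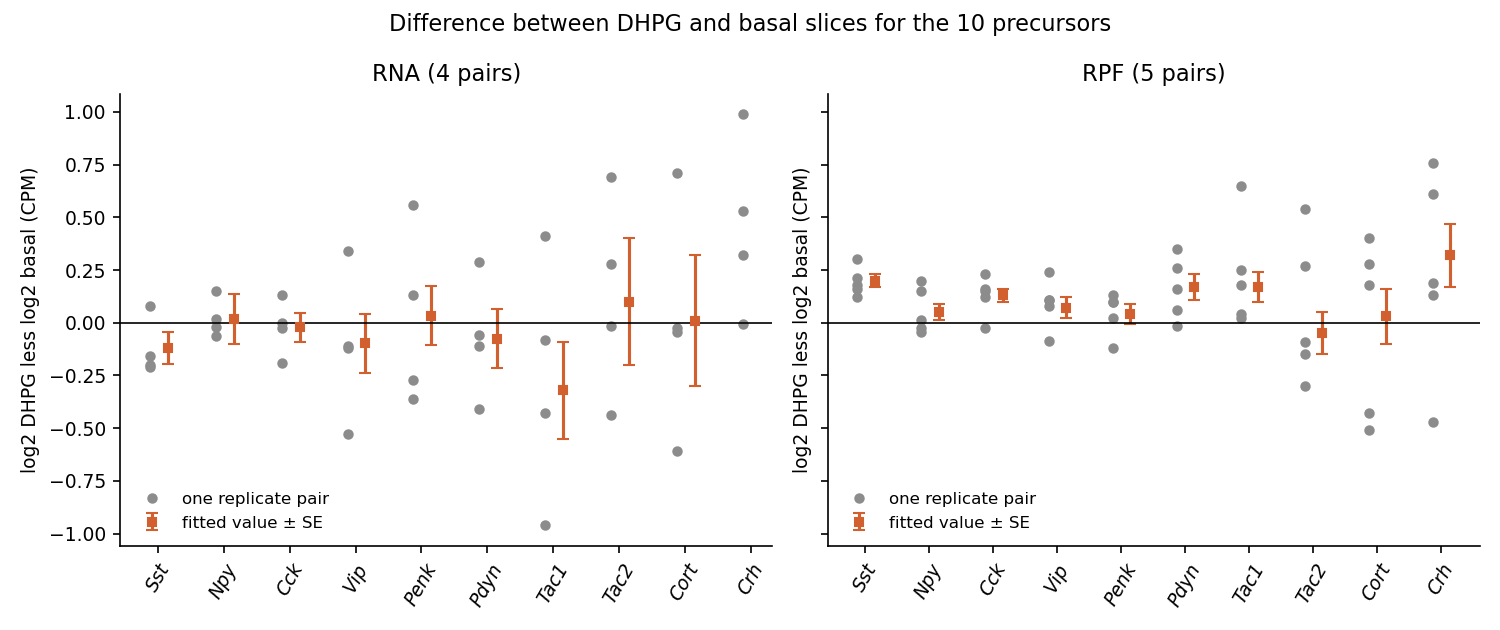
Log2 difference between DHPG and basal slices for each precursor in RNA (left, 4 pairs) and RPF (right, 5 pairs). Grey points are single replicate pairs and orange squares are fitted values with their standard error. Crh RNA has points only. The Sst RPF points lie close together and above 0 (0.12 to 0.30), and its fitted RNA value is below 0 (-0.12).

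The promoter of Sst is well known for its cAMP response element, the site of the activity-regulated factor CREB, and it is shown because Sst RNA was measured minutes after a stimulus. The palindrome TGACGTCA was present in 588 of 32851 RefSeq promoter windows (250 bases before to 50 after a start site, either strand), or 1.79%. Of 9 windows that belong to 8 of the precursors it was in 1, that of Sst, and starts 48 bases before the RefSeq start site, which lies at 23890844, 114 bases inside the GENCODE gene given above (GRCm38.p6, minus strand, chr16:23890855-23890922, the palindrome in capitals).
Sst promoter: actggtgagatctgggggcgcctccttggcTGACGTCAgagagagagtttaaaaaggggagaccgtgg
The shorter motif TGACG, on either strand and including the palindrome, was in 20.8% of all windows and in 5 of the 9, those of Cck, Cort, Sst, Tac1 and Vip. These matches describe the letters in the windows only.

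Other genes of peptide signalling were taken from lists that were, like the marker lists below, written with earlier results of these data known. DESeq2 counts for them are adjusted over all genes, because its own filter left few of their RPFs an adjusted p. Of 50 other peptide precursors, 21 were tested in RPF and 14 in RNA, with 17 and 12 higher after DHPG (medians 0.11 and 0.14) and none called in RNA, RPF or the difference between them (edgeR and DESeq2, with 2, 5 and 2 at an unadjusted p under 0.05 in RNA, RPF and the difference). The most abundant in RPF were Vgf, the precursor of several secreted peptides (565 ± 49.0 CPM basal and 610.2 ± 48.3 after DHPG, SD, n = 5), the astrocyte product angiotensinogen, Agt, and neurotensin, Nts. Their log2 fold changes in RPF were 0.11, 0.089 and 0.17. In the difference between RPF and RNA 7 of 14 were above 0, with a median of 0.0071.

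Peptide receptors were tested for 16 of 20 genes in RPF, 12 of them higher (median 0.066), and for 14 in RNA, 10 of them higher (median 0.058). None was called by edgeR or DESeq2 (2 in RNA, 3 in RPF and 0 in the difference at an unadjusted p under 0.05). The most abundant in RPF were the neuropeptide Y receptors Npy2r (71.7 ± 4.61 CPM basal, log2 fold change -0.028) and Npy1r (43.5 ± 5.02, 0.037) and the somatostatin receptor Sstr4 (49.4 ± 3.42, 0.11). The enzymes and granins that process and pack peptides were all tested (12 of 12), with 11 higher in RPF (median 0.061) and 8 in RNA (median 0.023), and none was called by edgeR (2, 6 and 1 at an unadjusted p under 0.05 in RNA, RPF and the difference). DESeq2 called none of them, or 1 in RPF with its own filter, the granin Scg2. Carboxypeptidase E, Cpe, was the most abundant (4538 ± 460.4 CPM basal and 4743 ± 524 after DHPG in RPF, 0.062), followed by the granins Chgb (0.06) and Scg3 (0.061).

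Markers of interneurons, which make most of these peptides, showed no common direction. Of 24 interneuron markers, 10 of 23 tested were higher in RPF (median -0.0011) and 11 of 21 in RNA (median 0.00051), with none called by edgeR or DESeq2 (3 in RNA, 2 in RPF and 2 in the difference at an unadjusted p under 0.05). Gad1, the GABA-synthesizing enzyme, had 471.7 ± 24.2 CPM in basal RPF and 456.4 ± 41.0 after DHPG (log2 fold change -0.052, edgeR, adjusted p = 0.557). Reln had 0.02 and Kit 0.036. The summed level of the list ran from 1700 to 1939 CPM in basal RPF libraries and from 1727 to 1885 after DHPG. Chodl, a marker of a rare Sst class, had at most 3 counts in every RNA library.

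Most markers of thalamus had higher fitted values after DHPG. Their list was written with earlier results of these data known, so that the counts are descriptions. In RPF 12 of 12 tested were higher after DHPG (median 0.27) and 6 were called (Tcf7l2, Shox2, Prkcd, Slc17a6, Zic1 and Tnnt1), and in RNA 9 of 10 were higher with Prkcd called. DESeq2 called none of them over all genes, and its own filter gave an adjusted p to 0 of the 12 in RPF (8 in RNA and 11 in RPF had an unadjusted p under 0.05 in edgeR). Their summed RPF level ran from 232 to 278.2 CPM in basal and from 231 to 364.4 CPM in DHPG libraries, and no marker of the 13 was at 0 throughout. By pair, their median RPF difference was 0.24, 0.44, 0.43, 0.47 and -0.21. The Sst RPF differences in the same pairs were 0.12, 0.21, 0.16, 0.18 and 0.30. The part of these markers in the values of Sst and the other precursors was not tested. Striatum markers, from a tissue rich in Penk, Tac1 and Pdyn, were higher in RPF for 5 of 8 (median 0.048) and habenula markers, from a tissue rich in Tac1, for 5 of 6 (median 0.19), with none called by edgeR or DESeq2 and 0 in each list at an unadjusted p under 0.05. Principal cell markers were higher in RPF for 9 of 12 (median 0.015), astrocyte markers for 8 of 8 (0.059), microglia markers for 8 of 8 (0.096), choroid plexus markers for 2 of 3 (0.13) and oligodendrocyte markers for 6 of 8 (0.092), with Mag called among the last by edgeR. In RNA, 12 of 12 principal cell markers (0.093) and 8 of 8 oligodendrocyte markers (0.16) were higher, and in the change of RPF less that of RNA 0 of 12 (-0.095) and 0 of 8 (-0.071) were above 0. DESeq2 called none of these lists' genes, or Gja1 in RPF among the astrocyte markers with its own filter.

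The precursors did not vary as a unit from library to library. Over 45 pairs of precursors, the Pearson correlation of log2 CPM had a median of 0.10 in the 9 RNA libraries (27 pairs positive) and of 0.26 in the 10 RPF libraries (35 positive). These libraries share replicate numbers, and the values are descriptions. Tac2, Cort and Crh had at most 18 counts in any RNA library. Their low RNA correlations cannot be told from counting noise, and their high ones rest on few counts, such as 0.82 for Cck and Cort. In RNA Sst went with Pdyn (0.83) and Cck (0.75) and against Crh (-0.73, on 3 to 15 Crh counts a library). Npy went with Cck (0.76) and against Vip (-0.73). In RPF the 2 tachykinin precursors Tac1 and Tac2 went together (0.89), as did Vip and Penk (0.86), Pdyn and Crh (0.83) and Sst and Pdyn (0.73).

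Likeness to all genes was measured over the 19 libraries, with each gene centred within its assay, among 10538 genes of at least 5 CPM in both. The genes named are the highest of these many correlations, over libraries that share replicate numbers, and the values are descriptions without a test. RNA libraries weigh more for Sst, whose SD over replicates was 0.29 in RNA and 0.043 in RPF. Tac2, Cort and Crh had at most 18 counts in any RNA library. The 3 genes most like Sst were Syp (synaptophysin, r = 0.93), Syt5 (a synaptotagmin, 0.91) and Diras1 (a small GTPase, 0.89). Those most like Cck were C1qtnf4, Anapc11 and Stmn3, each at 0.96. For Npy they were Cds1 (0.86), Saysd1 (0.83) and Atox1 (0.83), for Vip Prdm2 (0.87), Hprt (0.82) and Heph (0.80), for Pdyn Arl6ip5 (0.86), Mien1 (0.84) and Tmem9 (0.82), and for Penk Car4 (0.80), Icosl (0.76) and Gm15800 (0.73). For Tac1 they were Ndufa4 (0.83), Sec22a (0.81) and Txndc17 (0.81), for Tac2 Lpcat2 (0.79), Fkbp10 (0.76) and Tmed1 (0.74), for Cort Ficd (0.87), Htr5b (0.85) and Kcnj11 (0.82), and for Crh Twsg1 (0.85), Cdo1 (0.82) and Vma21 (0.81).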

How the data were processed

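The authors trimmed the reads, left out those from rRNA and tRNA, mapped the others to mm10, kept unique reads without duplicates and deposited RSEM expected counts per gene, rounded and not normalized. The RPF counts are on RefSeq coding sequences without the first and last 30 nt, and RNA on whole transcripts. The tables also hold 12 columns of replicates outside the series, which were not used. The 10 precursors and all gene lists were chosen with earlier results of these data known.

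Counts were tested in R 4.3.3 with edgeR 4.0.16 (limma 3.58.1): TMM, filterByExpr, the quasi-likelihood F test blocked on replicate number and p-values adjusted by Benjamini-Hochberg over every gene tested, called at an adjusted p of 0.01 for RNA and 0.05 for RPF and for the difference between them (one model over 19 libraries). The study corrected for batch by these numbers, and deviations of libraries with the same number correlated at 0.26 to 0.72. Replicates are pools of slices, and p-values for DHPG are set only against the spread between replicate pairs. Those for replicate numbers are set against the residual spread of the same fit, where basal and DHPG libraries of a replicate serve as repeats. Log2 CPM used a prior count of 2. Lengths and positions come from GENCODE for mm10, and may differ from those of the transcripts used for counting. For Sst the RefSeq start site lies 114 bases inside the GENCODE gene, so that its RNA level and ratio per length are approximate. Genes were named by a rule: all precursors, and in each list the called genes and the 3 with most basal RPF; likeness was ranked by correlation over all libraries. Alternatives were DESeq2 1.42.0 (also without its filter on low means, added after seeing the data), its size factors in edgeR, no filter, no block, other thresholds, a prior count of 0.5, and each replicate left out. Steps were tested on simulated data.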

Additional observations from a re-analysis of the deposited data

Results flagged for a closer look

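A library was sought in 60 groups of values that lies far from the others of its group. Chance gives about 3, and 2 stood out. Npy RPF in basal replicate 1 was 94.7 CPM, above the 87.4 to 89.4 CPM of the other 4 basal libraries, and DHPG replicate 1 was the highest DHPG library too (108.4 CPM). Pdyn RPF in DHPG replicate 2 was 31.0 CPM, above the 25.6 to 27.0 CPM of the other 4, and without replicate 2 the log2 fold change of Pdyn RPF was 0.11 in place of 0.17.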

How the results depend on the processing

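Calls across all genes depended on the settings, and values of the precursors did so far less. The main counts were 1 gene in RNA, 29 in RPF and 0 in the difference between them. Without a filter they were 7, 96 and 4, without the replicate block 0 in RNA and 0 in RPF, with DESeq2 0 in RNA, and at an adjusted p of 0.01 8 in RPF. DESeq2 without its filter on low means, added after seeing the data, called 4 RPFs. With each replicate left out they ran from 0 to 22, from 3 to 71 and from 0 to 8, with the extremes at replicates 2 and 3. Precursors called in RPF were 2 with no filter, with DESeq2 and without replicate 3 (Sst and Cck), 0 without the block, and 1 to 2 with a replicate left out. For the difference between replicate numbers, DESeq2 called 2824 RNAs and 3428 RPFs in place of 4553 and 6374, and 3 precursors in RPF (of 8 with an adjusted p) in place of 6. With a replicate left out the RNA count ran from 1499 (without replicate 3) to 5529. The ratio of the precursors had a median of 1.59 to 1.81 under its alternatives. Of 312 values of single precursors under all settings, 309 moved by less than the spread between replicates and 3 by more, all in DHPG slices: the RPF to RNA ratio was 2.22 for Sst and 1.36 for Pdyn, above basal, and lower than basal for Crh. Values near 0 did turn sign, in 10 of 81 RNA fold changes (7 genes, not Sst or Tac1), 4 of 90 in RPF (Tac2 and Cort) and 9 of 81 in the difference (Npy, Penk, Tac2 and Cort). Causes were not tested. Low RNA counts limit Tac2, Cort and Crh, and footprints near stop codons were not counted.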
